A study of Homo sapiens with 18 samples.

Results

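The genes described here are SHP-1, encoded by PTPN6, and the receptors, kinase and adaptors that place it and related enzymes at the B cell membrane. The group was listed by gene symbol as PTPN6, INPP5D, FCGR2B, CD22, CD72, SIT1, LYN, CD5, PTPN22 and PAG1. A gene was taken where its symbol alone named a locus of the deposited expression table, which held for 9 of the 10 symbols, against 26004 named loci in all. LYN named 2 loci, and the one with the higher mean over all 18 libraries, 38.9 against 0.234 FPKM, was kept. The loci were thus chosen by symbol and, for LYN alone, by mean FPKM over all libraries, a mean that uses no difference between conditions. The list of symbols itself was drawn up with earlier results of these data known, so it cannot be taken as independent of the inhibitor comparisons. CD22 had no locus of its own and was measured only in a locus that joins it with FFAR1, MAG and MIR5196, so it is described apart and enters no count.

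B cell receptor signalling is held in check by receptors that carry an inhibitory tyrosine motif in their cytoplasmic tail. The kinase LYN phosphorylates that motif, which then recruits the tyrosine phosphatase SHP-1 or the lipid phosphatase SHIP-1, the product of INPP5D. CD22, CD72 and the IgG receptor FCGR2B are such receptors in B cells, while CD5 is one of T cells and a B cell subset. SIT1 and PAG1 are membrane adaptors of lymphocytes, and PTPN22 is a phosphatase that acts on kinases of the Src and Syk families.

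Transcripts were measured by mRNA sequencing in SUDHL6, SUDHL4 and Farage, established human cell lines of diffuse large B cell lymphoma that the labels place in its germinal centre subtype. Each line was exposed to a BCL6 inhibitor or to the solvent DMSO, with 3 libraries in each of the 6 groups. BCL6 is a repressor of transcription on which germinal centre B cells depend. The titles and descriptions give 12 h of exposure and the source names 24 h, and the sources used here do not settle which holds. No genotype, transgene or further agent is given for any group. The sources used here name neither the inhibitor nor its dose, nor do they say whether replicates were separate cultures. Each p below therefore measures only the spread between these samples, which may be technical.

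Values are FPKM, fragments scaled to transcript length and library depth, as the authors deposited them. FPKM is per length, so that levels can be set side by side between genes. Log2 changes are on the scale of log2(FPKM + 1), which understates the change of a gene with low FPKM. They come from limma, fitted over 12201 named loci with at least 1 FPKM in at least 3 libraries, and a locus was called where the Benjamini-Hochberg adjusted p over all of these was under 0.05. Of the 9 genes 8 passed the filter and CD5 did not. In these bulk samples, fewer cells of a type and less RNA per cell cannot be told apart.

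Library sums lay between 1130063 and 1548453 FPKM, of which small RNA loci held 27.4 to 53.8%. Read counts are not used here, and relative depth, read from whole-read steps at loci of 56 bp within a tolerance of 0.02, ranged from 0.691 to 1.15 (median 1) where such steps were found, in 16 libraries. In every line it ran lower in treated than in DMSO libraries, without overlap, for example 0.691 to 0.861 against 0.998 to 1.15 in SUDHL4. In Farage the ranges nearly met, with a highest treated value of 1.001 and a lowest DMSO value of 1.008. Neither replicate 3 library of SUDHL6 gave a depth. Both replicate 3 libraries of SUDHL6 stood apart, since their highest correlation with a library of their own group was 0.909 under DMSO and 0.895 under the inhibitor, against 0.962 or more in the groups of the other lines. The lines expressed the B cell markers MS4A1 at 228 to 968 FPKM and PAX5 at 6.16 to 55.5 FPKM. The defining T cell gene CD3D did not exceed 0.0901 FPKM, and 7 of 8 measured T and NK cell markers stayed under 1 FPKM in all libraries. BCL6 itself fell in SUDHL4 (log2 change -0.85) while the values in SUDHL6 (-0.19) and Farage (0.20) missed the threshold.

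The 250 bases before the annotated start of PTPN6, SIT1, CD72 and INPP5D are shown because these 4 genes had the largest mean changes of the group on the log2(FPKM + 1) scale. With 0.1 FPKM added in place of 1, FCGR2B (mean -1.68) ranked before INPP5D (-1.49). They were taken from RefSeq on build GRCh38.p14, read 5′ to 3′ on the gene's own strand, and PTPN6 has 2 annotated starts. Capitals mark the only motif match found in these 5 windows.
PTPN6 start 1, chr12:6946327-6946576, plus strand: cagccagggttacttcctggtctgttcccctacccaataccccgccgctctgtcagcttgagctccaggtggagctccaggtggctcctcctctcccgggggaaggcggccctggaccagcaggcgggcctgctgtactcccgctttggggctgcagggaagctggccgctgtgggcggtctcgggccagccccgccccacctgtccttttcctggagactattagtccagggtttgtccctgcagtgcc
PTPN6 start 2, chr12:6951106-6951355, plus strand: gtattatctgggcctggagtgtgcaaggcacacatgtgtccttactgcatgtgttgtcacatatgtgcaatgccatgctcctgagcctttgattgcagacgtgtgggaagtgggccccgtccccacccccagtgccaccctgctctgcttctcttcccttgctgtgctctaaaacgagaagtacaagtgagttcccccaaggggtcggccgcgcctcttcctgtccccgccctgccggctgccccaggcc
SIT1, chr9:35650932-35651181, minus strand: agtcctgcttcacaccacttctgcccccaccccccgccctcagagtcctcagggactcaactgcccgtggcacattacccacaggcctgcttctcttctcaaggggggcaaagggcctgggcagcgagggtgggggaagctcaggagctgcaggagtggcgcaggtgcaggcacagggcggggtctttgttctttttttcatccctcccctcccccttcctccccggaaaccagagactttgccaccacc
CD72, chr9:35618414-35618663, minus strand: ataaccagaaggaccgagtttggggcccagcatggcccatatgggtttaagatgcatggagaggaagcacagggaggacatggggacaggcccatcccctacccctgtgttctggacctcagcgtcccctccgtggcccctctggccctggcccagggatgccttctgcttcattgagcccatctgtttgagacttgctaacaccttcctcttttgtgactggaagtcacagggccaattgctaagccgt
INPP5D, chr2:233060092-233060341, plus strand: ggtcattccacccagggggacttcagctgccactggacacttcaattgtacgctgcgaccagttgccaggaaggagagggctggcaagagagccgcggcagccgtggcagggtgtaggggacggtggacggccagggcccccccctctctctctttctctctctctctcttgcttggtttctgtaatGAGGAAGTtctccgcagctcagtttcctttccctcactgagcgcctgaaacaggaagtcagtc

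Their G and C content was 66.4 and 59.6% at the PTPN6 starts, 63.2% at SIT1, 57.2% at CD72 and 59.2% at INPP5D, beside a median of 58% over 35116 RefSeq windows of this length. Both strands of 9 windows of 7 members (PTPN6, INPP5D, FCGR2B, CD22, CD72, SIT1 and PTPN22) were searched for 5 motifs. No window of LYN, PAG1 or CD5 was searched. A BCL6 motif, TTCCTNGAA, was in none of the 9 windows and in 1.37% of all windows. The octamer ATTTGCAT, which none of the 9 windows held, was in 1.63% and the E-box CACGTG, also in none of the 9, in 6.34%. The PU.1 motif GAGGAAGT, in 2.17% of all windows, was found once, 63 bases before the INPP5D start. The AP-1 motif TGANTCA, in 6.57% of all windows, was found once, 72 bases before the first FCGR2B start. The bases that follow both FCGR2B starts were not found in an annotated transcript of that gene, while those of the other searched windows were. The motifs do not overlap one another in these windows, and a match describes letters only.

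PTPN6, the phosphatase at the centre of the group, was lower under the inhibitor in each line. The locus is hg19 chr12:7055740-7070582. In SUDHL6 its FPKM was 16.8, 12.3 and 25.6 under DMSO and 1.34, 2.99 and 4.59 under the inhibitor. In SUDHL4 it was 146, 149.6 and 122 FPKM under DMSO and 10.6, 11.8 and 10.8 FPKM under the inhibitor. In Farage it was 191, 201 and 190.4 FPKM under DMSO and 26.9, 25.8 and 32.3 FPKM under the inhibitor. In each line all treated libraries were lower than all DMSO libraries, and SUDHL6 was the low line under both conditions. The treated mean was 16.3% of the DMSO mean in SUDHL6, 7.97% in SUDHL4 and 14.6% in Farage. On the log2 scale the changes were -2.31, -3.53 and -2.74 (SE 0.26 each, n = 3 against 3), with a mean over the lines of -2.86 (SE 0.15).

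**Figure D1:**
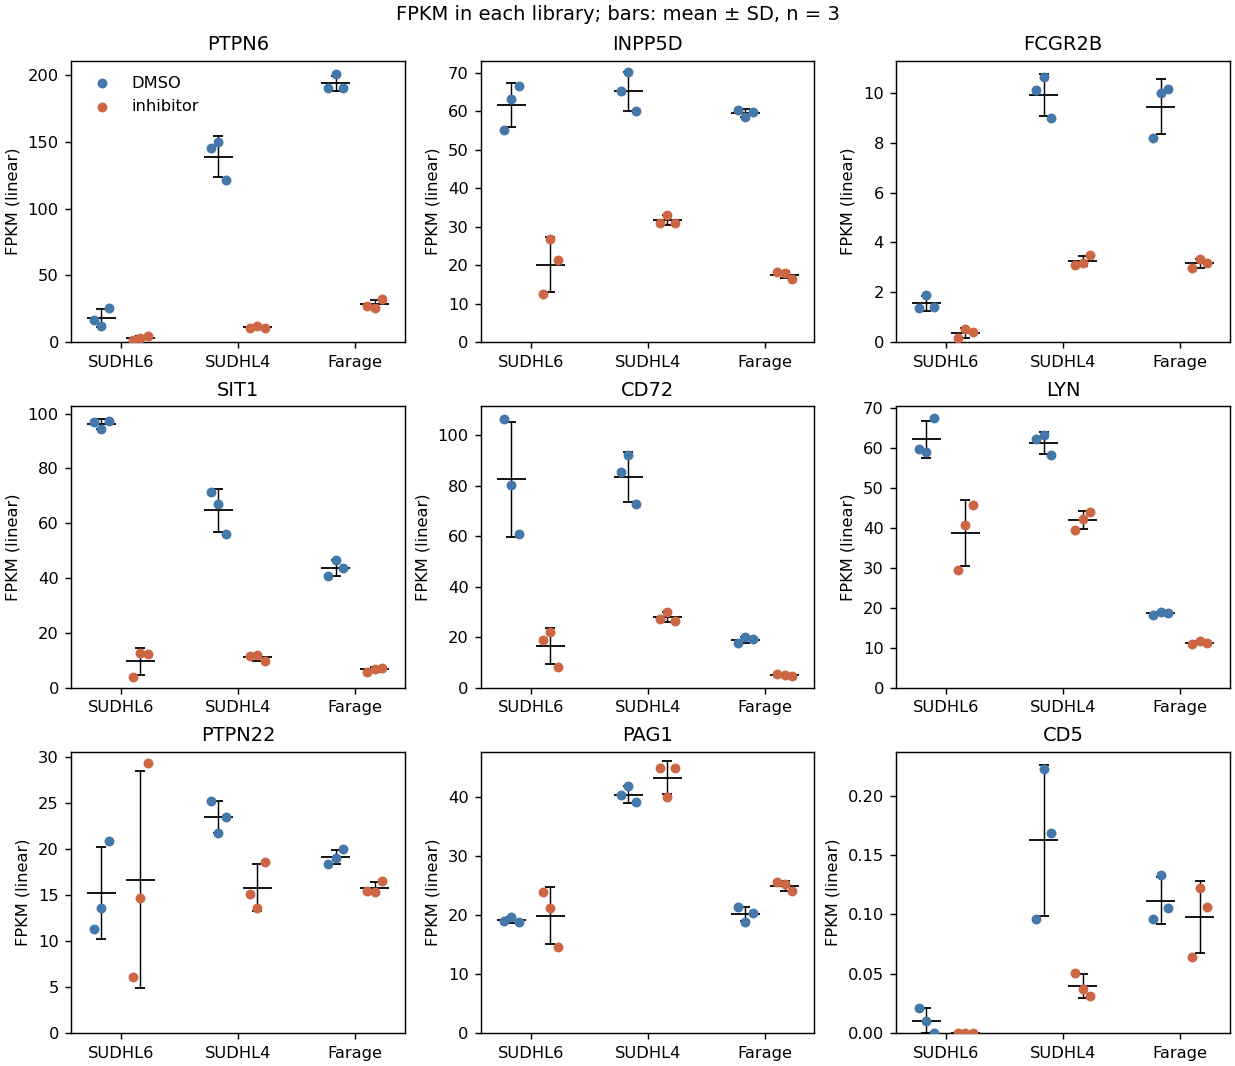
FPKM (linear axes, each from 0) of the 9 genes with a locus of their own in every library, by line, under DMSO (blue) and the inhibitor (orange). Points are libraries, horizontal bars the mean and vertical bars the SD of 3 libraries. PTPN6, INPP5D, FCGR2B, SIT1, CD72 and LYN show no overlap between conditions in any line, whereas PTPN22 and PAG1 overlap in SUDHL6, PAG1 also in SUDHL4, and CD5 stays at or under 0.222 FPKM.

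The 6 groups of PTPN6 libraries did not overlap one another. From high to low they were Farage under DMSO (mean 194 FPKM), SUDHL4 under DMSO (139), Farage under the inhibitor (28.4), SUDHL6 under DMSO (18.2), SUDHL4 under the inhibitor (11.1) and SUDHL6 under the inhibitor (2.97). The inhibitor thus left more PTPN6 transcript in Farage than DMSO-treated SUDHL6 cells held. Between DMSO groups, PTPN6 was higher in SUDHL4 than in SUDHL6 by 2.92 on the log2 scale (SE 0.26, limma adjusted p = 2.21e-07). It was higher in Farage than in SUDHL6 by 3.40 (limma adjusted p = 2.85e-08). The spread behind these tests was estimated from all 18 libraries, treated ones included. Farage and SUDHL4 differed by 0.48, which did not pass (limma adjusted p = 0.125), although their libraries did not overlap.

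The size of the PTPN6 change differed between the lines (limma F test over the 3 lines, adjusted p = 0.0345), in a fit in which 52.5% of all tested loci were called for such a difference. Over 28 alternative settings the adjusted p ranged from 0.000176 to 0.165, and 11 lost the call, among them leaving out DMSO replicate 1 or 2 of SUDHL6 (0.0592 and 0.0632), treated replicate 2 of SUDHL6 (0.0597), DMSO replicate 1 or 2 of SUDHL4 (0.0734 and 0.0767) and any treated SUDHL4 library (0.0522 to 0.0705). Without both replicate 3 libraries of SUDHL6 it was 0.00508. SUDHL4 had the largest log2 change and SUDHL6 the smallest. With 0.1 FPKM added in place of 1, the changes were -2.67 in SUDHL6, -3.63 in SUDHL4 and -2.78 in Farage. That setting gave the highest F test value (limma adjusted p = 0.165).

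INPP5D, the lipid phosphatase that removes a phosphate from the product of PI3-kinase, was also lower in each line (hg19 chr2:233924414-234116665). Its FPKM in SUDHL6 was 55.2, 63.3 and 66.5 under DMSO and 12.4, 26.7 and 21.4 under the inhibitor. The SUDHL4 values were 65.3, 70.1 and 60.1 FPKM under DMSO and 31.0, 33.2 and 31.0 FPKM under the inhibitor. The Farage values were 60.4, 58.6 and 59.8 FPKM under DMSO and 18.2, 17.9 and 16.5 FPKM under the inhibitor. The conditions did not overlap in any line, and 32.7%, 48.6% and 29.5% of the DMSO mean remained in SUDHL6, SUDHL4 and Farage. The log2 changes were -1.62, -1.01 and -1.71 (SE 0.18 each), with a mean of -1.45 (SE 0.10). The 3 DMSO groups overlapped, and their log2 differences of 0.08, -0.04 and -0.12 did not pass. The difference of the inhibitor change between lines did not pass in the limma F test (adjusted p = 0.0597), and passed in 6 of 28 alternative settings. These were the replicate number as a block (limma adjusted p = 0.0231), median-ratio scaling (0.0408), quantile normalization (0.0435), sample weights (0.000412) and leaving out treated replicate 1 or 2 of SUDHL6 (0.00117 and 0.00714).

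PTPN22, the third phosphatase of the group, was not called in any line (hg19 chr1:114356250-114447741). In SUDHL6 its FPKM was 11.3, 13.6 and 20.9 under DMSO and 6.05, 14.6 and 29.3 under the inhibitor, which overlap. The replicate 3 libraries were the highest of both SUDHL6 groups. In SUDHL4 it was 25.1, 21.7 and 23.4 FPKM under DMSO and 15.1, 13.6 and 18.6 FPKM under the inhibitor. In Farage it was 18.4, 19.0 and 19.9 FPKM under DMSO and 15.5, 15.3 and 16.5 FPKM under the inhibitor. In SUDHL4 and Farage all treated libraries lay below all DMSO libraries. The log2 differences between conditions were -0.08, -0.55 and -0.26 (SE 0.36 each) with limma adjusted p of 0.887, 0.196 and 0.546. The call changed with how the spread was estimated. With each line fitted alone, the limma adjusted p was 0.00822 in SUDHL4 and 0.00247 in Farage. Without both replicate 3 libraries of SUDHL6 it was 0.0349 in SUDHL4, and the mean change of -0.39 over the lines passed (limma adjusted p = 0.0169). With the replicate block it was 0.0375 in SUDHL4, and 0.042 for the mean. Under DMSO the lines differed by 0.63 (SUDHL4 against SUDHL6), 0.35 (Farage against SUDHL6) and -0.28 (Farage against SUDHL4), and none passed, although the first did with the replicate block (limma adjusted p = 0.023).

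FCGR2B, the inhibitory receptor for IgG, was the least abundant receptor of the group that passed the filter (hg19 chr1:161632905-161648574). Its FPKM in SUDHL6 was 1.38, 1.90 and 1.41 under DMSO and 0.161, 0.532 and 0.410 under the inhibitor. The SUDHL4 values were 10.1, 10.6 and 9.01 FPKM under DMSO and 3.10, 3.17 and 3.50 FPKM under the inhibitor. The Farage values were 8.18, 10.0 and 10.2 FPKM under DMSO and 2.97, 3.34 and 3.19 FPKM under the inhibitor. Treated libraries lay below DMSO libraries in each line, and 23.5%, 32.8% and 33.5% of the DMSO mean remained in SUDHL6, SUDHL4 and Farage. The log2 changes were -0.91, -1.36 and -1.32 (SE 0.11 each), so that SUDHL6 kept the smallest share of its FPKM but had the smallest change on the log2(FPKM + 1) scale. With 0.1 FPKM added in place of 1, the SUDHL6 change was -1.91. The limma F test of the difference between lines gave an adjusted p of 0.0481, and 22 of 28 alternative settings lost this call, leaving out both SUDHL6 replicate 3 libraries among them (adjusted p = 0.169).

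Under DMSO, FCGR2B was higher than in SUDHL6 by 2.09 on the log2 scale in SUDHL4 (limma adjusted p = 7.55e-10) and by 2.03 in Farage (limma adjusted p = 6.08e-10). Its related neighbours FCGR2C and FCGR2A were listed at 0 to 0.255 and 0 to 0.229 FPKM. The FCGR2B level is uncertain to the extent that reads of the 3 genes could not be divided, and no source used here gives the rule.

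CD72, a lectin-like receptor that recruits SHP-1, was lower in each line (hg19 chr9:35605281-35646926). In SUDHL6 its FPKM was 106, 80.3 and 61.1 under DMSO and 19.0, 22.0 and 8.21 under the inhibitor. In SUDHL4 it was 85.3, 92.2 and 72.7 FPKM under DMSO and 27.2, 30.1 and 26.5 FPKM under the inhibitor. In Farage it was 17.5, 19.9 and 19.2 FPKM under DMSO and 5.49, 4.83 and 4.54 FPKM under the inhibitor. No line showed overlap between conditions, and Farage was the low line in both. The log2 changes were -2.33, -1.54 and -1.74 (SE 0.27 each), with a mean of -1.87 (SE 0.15). The F test of their difference did not pass (limma adjusted p = 0.181), and passed with the replicate block (limma adjusted p = 0.0324) and without both SUDHL6 replicate 3 libraries (limma adjusted p = 0.0413).

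Under DMSO, CD72 was lower in Farage than in SUDHL6 by -2.04 on the log2 scale (limma adjusted p = 8.12e-06) and lower than in SUDHL4 by -2.08 (limma adjusted p = 6.98e-06). SUDHL4 and SUDHL6 differed by 0.04 and overlapped. The order of lines for CD72 was thus unlike that for PTPN6, which was highest in Farage.

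SIT1, an adaptor of lymphocytes with inhibitory tyrosine motifs, lies next to CD72 on the same chromosome (hg19 chr9:35647327-35651311). Whether the libraries keep strand is not given in the sources used here. Its FPKM in SUDHL6 was 97.1, 94.3 and 97.3 under DMSO and 3.97, 12.5 and 12.3 under the inhibitor. The SUDHL4 values were 71.3, 67.0 and 56.02 FPKM under DMSO and 11.5, 11.9 and 9.55 FPKM under the inhibitor. The Farage values were 40.8, 46.7 and 43.8 FPKM under DMSO and 5.78, 6.83 and 7.26 FPKM under the inhibitor. The DMSO groups were separate from one another and from the treated groups, and the treated groups of SUDHL4 and SUDHL6 overlapped, as did those of SUDHL6 and Farage. The log2 changes were -3.34, -2.45 and -2.56 (SE 0.27 each), with a mean of -2.78 (SE 0.16). Their difference between lines did not pass (limma F test, adjusted p = 0.121). Of the DMSO comparisons, Farage against SUDHL6 passed at -1.12 (limma adjusted p = 0.0022), and the other 2, at -0.57 and -0.55, did not (limma adjusted p = 0.0826 and 0.0939). They passed in 5 and 4 of 29 alternative settings, among them quantile normalization (limma adjusted p = 0.0496 and 0.0441), sample weights (0.00928 and 2.44e-05), DMSO libraries alone (0.000713 and 0.000872) and leaving out treated replicate 1 of SUDHL6 (0.000188 and 0.000255).

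LYN, the kinase that starts the inhibitory signal and also acts early in activation, changed by less (hg19 chr8:56771707-56927644). In SUDHL6 its FPKM was 59.8, 59.1 and 67.5 under DMSO and 29.5, 40.7 and 45.7 under the inhibitor. In SUDHL4 it was 62.3, 63.2 and 58.1 FPKM under DMSO and 39.5, 42.3 and 43.9 FPKM under the inhibitor. In Farage it was 18.2, 18.9 and 18.7 FPKM under DMSO and 10.9, 11.6 and 11.1 FPKM under the inhibitor. Treated libraries lay below DMSO libraries in each line. The log2 changes were -0.69, -0.54 and -0.68 (SE 0.11 each), with a mean of -0.64 (SE 0.07), and their difference between lines did not pass (limma F test, adjusted p = 0.636). Under DMSO, LYN was lower in Farage by -1.69 against SUDHL6 (limma adjusted p = 6.22e-09) and by -1.67 against SUDHL4 (limma adjusted p = 7.27e-09), while SUDHL4 and SUDHL6 overlapped.

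LYN encodes the kinase that phosphorylates the inhibitory motifs, and PTPN6 the phosphatase that these motifs then recruit. The ratio of the FPKM values of LYN and PTPN6 within a library does not depend on how that library was scaled. In SUDHL6 the LYN to PTPN6 ratio was 3.56, 4.81 and 2.64 under DMSO and 22.0, 13.6 and 9.97 under the inhibitor. In SUDHL4 it was 0.427, 0.422 and 0.478 under DMSO and 3.72, 3.58 and 4.08 under the inhibitor. In Farage it was 0.0953, 0.0942 and 0.0984 under DMSO and 0.405, 0.449 and 0.344 under the inhibitor. The ratio was higher in all treated libraries than in all DMSO libraries of each line. LYN exceeded PTPN6 in SUDHL6 under both conditions, PTPN6 exceeded LYN in Farage under both, and in SUDHL4 the order turned with treatment. The ratio shows that the pair changed unequally and carries no test of its own.

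**Figure D2:**
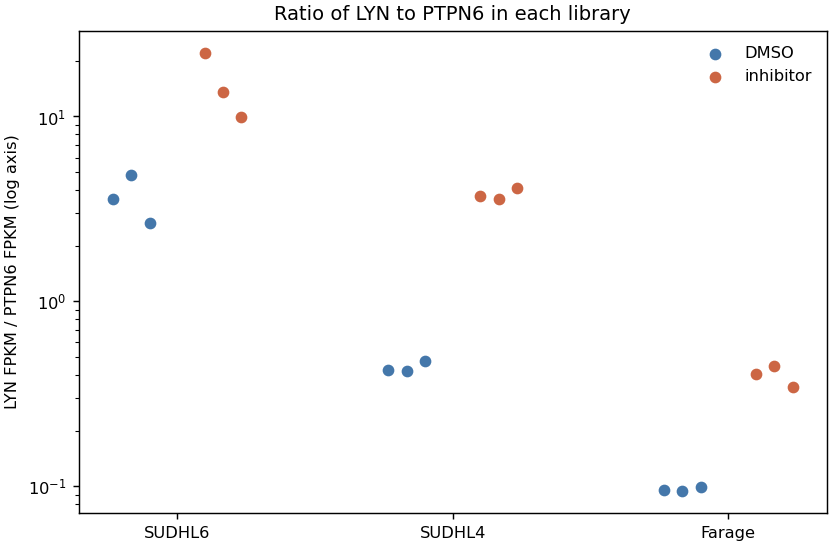
Ratio of LYN FPKM to PTPN6 FPKM (log axis, no unit) in each of the 18 libraries, by line, under DMSO (blue) and the inhibitor (orange), one point a library. SUDHL4 libraries move from 0.422 to 0.478 under DMSO to 3.58 to 4.08 under the inhibitor, and Farage libraries from 0.0942 to 0.0984 to 0.344 to 0.449.

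PAG1, the raft adaptor that recruits the kinase CSK, was the only tested gene of the group called higher in a line, Farage (hg19 chr8:81879990-82024316). Its FPKM in SUDHL6 was 19.1, 19.8 and 18.8 under DMSO and 24.0, 21.1 and 14.6 under the inhibitor. The SUDHL4 values were 40.4, 41.9 and 39.2 FPKM under DMSO and 45.0, 40.1 and 45.0 FPKM under the inhibitor. The Farage values were 21.3, 18.9 and 20.4 FPKM under DMSO and 25.7, 25.3 and 24.0 FPKM under the inhibitor. Only in Farage did the conditions not overlap, with the treated libraries higher. The log2 changes were 0.02, 0.09 and 0.30 (SE 0.12 each), of which the Farage change passed (limma adjusted p = 0.0447), a call that 16 of 29 alternative settings lost, leaving out any single Farage library among them (adjusted p 0.0526 to 0.135). The difference between lines did not pass (limma F test, adjusted p = 0.367). Without both SUDHL6 replicate 3 libraries, the change was 0.20 in SUDHL6 (limma adjusted p = 0.0366) and 0.20 over the lines (limma adjusted p = 0.000491), and without the treated library at 14.6 FPKM alone the SUDHL6 change was 0.22 (limma adjusted p = 0.0154). Under DMSO, PAG1 was higher in SUDHL4 than in SUDHL6 by 1.04 (limma adjusted p = 3.67e-06) and lower in Farage than in SUDHL4 by -0.97 (limma adjusted p = 6.33e-06).

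CD5, which marks T cells and a B cell subset, was near 0 throughout (hg19 chr11:60861347-60895409). Its highest value was 0.222 FPKM, in a DMSO library of SUDHL4, and it was listed at 0 in all 3 treated libraries of SUDHL6. In SUDHL4 the treated libraries, at a mean of 0.0394 FPKM, lay below the DMSO libraries, at 0.162 FPKM, and the gene was too low to be tested.

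The locus that holds CD22, the sialic acid-binding receptor with inhibitory motifs, cannot be divided among its genes (hg19 chr19:35782989-35862278). In SUDHL6 it stood at 179, 240.4 and 208 FPKM under DMSO and 129, 166 and 62.6 FPKM under the inhibitor. In SUDHL4 it stood at 375, 389 and 373 FPKM under DMSO and 455, 478 and 438 FPKM under the inhibitor. In Farage it stood at 268, 241 and 235 FPKM under DMSO and 288, 274 and 273 FPKM under the inhibitor. Treated libraries lay below DMSO libraries in SUDHL6 and above them in SUDHL4 and Farage, without overlap. The log2 change was -0.91 in SUDHL6 (limma adjusted p = 0.00405), while 0.27 in SUDHL4 and 0.17 in Farage did not pass (limma adjusted p = 0.346 and 0.563). Without the treated SUDHL6 library at 62.6 FPKM, one of those that stood apart, the SUDHL6 change was -0.50 (limma adjusted p = 0.00193) and the SUDHL4 change of 0.27 passed (limma adjusted p = 0.0356). With SUDHL6 fitted alone its change did not pass (limma adjusted p = 0.107), while SUDHL4 and Farage each fitted alone passed (limma adjusted p = 0.0026 and 0.0418). The limma F test of the difference between lines passed (adjusted p = 0.0157, and 0.00122 to 0.0462 over 28 alternative settings). What part of these values is CD22 cannot be told apart here.

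Of the 8 tested genes, 6 fell and 0 rose in SUDHL6, beside 33.7% of all tested loci called lower there and 30.2% called higher. The same 6 genes (PTPN6, SIT1, CD72, INPP5D, FCGR2B and LYN) fell in SUDHL4, beside 37.1% (and 0 rose, beside 29.6%), and in Farage, beside 38%. PAG1 rose in Farage, where 29.2% of loci were called higher. The same 6 fell and 0 rose in the mean of the lines, beside 44.9% called lower and 35.7% higher, and 21.2% of tested loci were called lower in each of the 3 lines. Treated libraries lay below DMSO libraries without overlap for 6 of the 8 genes in SUDHL6, beside 30.4% of tested loci, for 7 in SUDHL4, beside 42.3%, and for 7 in Farage, beside 44.8%, with PTPN22 as the added gene. They lay above for 0 genes in SUDHL6, beside 27.7%, 0 in SUDHL4, beside 35.7%, and 1 in Farage (PAG1), beside 35.6%. In all 3 lines they lay below for 6 genes, beside 22.7% of tested loci. The median log2 change of the 8 was -1.27 in SUDHL6, -1.19 in SUDHL4, -1.51 in Farage and -1.32 in the mean, while that of all tested loci was -0.01, -0.04, -0.07 and -0.08. These genes were listed with earlier results of these data known, so their counts and medians describe them and lend no support to a direction.

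**Figure D3:**
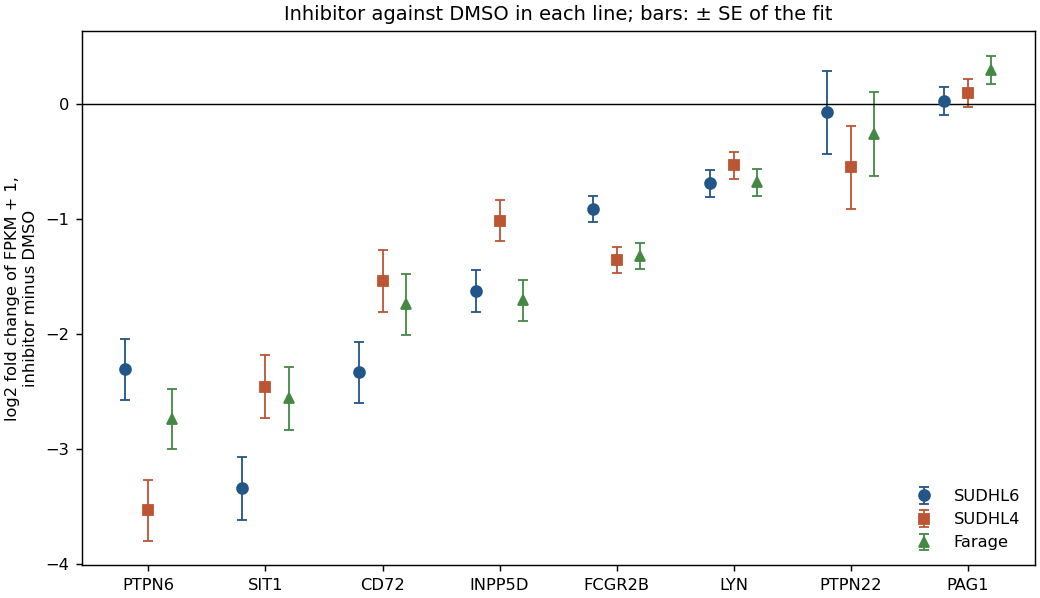
Change under the inhibitor (log2(FPKM + 1), inhibitor minus DMSO) of the 8 tested genes in SUDHL6 (circles), SUDHL4 (squares) and Farage (triangles), with vertical bars of 1 SE of the fit. PTPN6 and SIT1 have the largest mean changes, -2.86 and -2.78, PAG1 lies between 0.02 and 0.30, and PTPN22 between -0.08 and -0.55 with the widest bars (SE 0.36).

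Other values moved with these decreases. The summed FPKM of 6 measured B cell markers of 8 listed went from 1010 to 1073 under DMSO to 393.9 to 558.3 under the inhibitor in SUDHL6, from 1263 to 1307 to 1050 to 1161 in SUDHL4, and from 856 to 872.1 to 473.6 to 482.2 in Farage. The sum of 5 measured germinal centre markers of 7 listed was 122.9 to 154.7 FPKM under DMSO and 82.02 to 121 FPKM under the inhibitor in SUDHL6, 282 to 311.3 and 146.4 to 153.3 FPKM in SUDHL4, and 226.7 to 243.5 and 147.4 to 160.9 FPKM in Farage. This germinal centre sum was lower under the inhibitor in each line without overlap. BCL6 itself is among these markers and did not follow the sum in every line. Its libraries overlapped between conditions in SUDHL6. Its mean went from 53.8 to 61.9 FPKM in Farage, with treated libraries above DMSO libraries, and from 131 to 72.3 FPKM in SUDHL4. The sum of 5 plasma cell markers of 6 listed was 67.43 to 70.2 FPKM under DMSO and 202.3 to 214.7 FPKM under the inhibitor in Farage. That sum overlapped between conditions in SUDHL6 (42.36 to 111 and 56.41 to 115.6 FPKM) and was lower under the inhibitor in SUDHL4 (21.98 to 25.67 and 18.15 to 20.14 FPKM). The sum of 8 stromal and epithelial markers was 52.15 to 56.08 FPKM under DMSO and 16.28 to 17.63 FPKM under the inhibitor in SUDHL4 and at most 2.71 FPKM in the other lines. That of 7 monocyte markers of 8 listed was 0.694 to 1.99 FPKM under DMSO and 2.27 to 3.62 FPKM under the inhibitor over all lines, with S100A9 and FCGR3A at 0 throughout. Relative depth was lower in treated libraries, as given above. The part of these values in the decreases was not tested. T and NK cell markers summed to at most 1.99 FPKM in any library.

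The order of levels within a line also shifted. Under DMSO in SUDHL6 the 4 genes SIT1 (mean 96.3 FPKM), CD72 (82.6), LYN (62.2) and INPP5D (61.7) led, with overlap from each to the next, followed by PAG1 (19.2), PTPN6 (18.2) and PTPN22 (15.2), which overlapped as well. Under the inhibitor LYN led in SUDHL6 at 38.6 FPKM, apart from the next, INPP5D. In SUDHL4 PTPN6 led under DMSO and PAG1 (43.3 FPKM) and LYN (41.9 FPKM), which overlapped, led under the inhibitor. In Farage PTPN6 led under both conditions, and under the inhibitor PAG1 followed at 25.0 FPKM. FCGR2B and CD5 were the lowest of the 9 genes in each DMSO group.

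Between lines under DMSO, 3 of the 8 tested genes were higher in SUDHL4 than in SUDHL6 (PTPN6, FCGR2B and PAG1) and 0 lower, beside 30.4% of tested loci called higher and 33.5% lower. Farage against SUDHL6 gave 2 higher (PTPN6 and FCGR2B) and 3 lower (CD72, SIT1 and LYN), beside 33.1% and 33.7%. Farage against SUDHL4 gave 0 higher and 3 lower (CD72, LYN and PAG1), beside 33.1% and 30.7%. The comparisons use DMSO libraries that the inhibitor comparisons use too.

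The remaining genes of the pathway were taken as 4 lists, also drawn up with earlier results known. Of 18 other inhibitory receptors, 10 were tested, of which 6 fell and 2 rose in the mean of the lines, beside 44.9% of all tested loci called lower and 35.7% called higher, with a median log2 change of -0.85. The Fc receptor-like FCRL3 fell by 1.39 in the mean (SE 0.19), with -2.01 in SUDHL6, -1.77 in Farage and -0.39 in SUDHL4, the last not passing. FCRL5, of the same family, fell by 1.06 (SE 0.12) and in each line. BTLA, a receptor that recruits SHP-1, fell by 1.40 (SE 0.08), most on this scale in Farage, from a mean of 7.61 to 0.681 FPKM. BTLA means went from 1.82 to 0.242 FPKM in SUDHL6 and from 0.768 to 0.0908 FPKM in SUDHL4. At such low values the log2(FPKM + 1) scale understates a change. SIGLEC10, a lectin receptor related to CD22, fell by 0.90 in the mean (SE 0.08), with -1.90 in SUDHL4 and 0.02 in SUDHL6, the latter not passing. In SUDHL6 SIGLEC10 was low throughout, at means of 0.780 FPKM under DMSO and 0.787 FPKM under the inhibitor, against 23.8 FPKM in SUDHL4 under DMSO.

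Of 15 further phosphatases, lipid kinases and CSK, 11 were tested, of which 7 fell and 2 rose in the mean (all tested loci 44.9% lower and 35.7% higher), with a median of -0.17. PTPRC, the CD45 phosphatase that activates Src kinases, had a mean change of -0.79 (SE 0.08). The diacylglycerol kinases DGKA and DGKZ had -0.85 (SE 0.12) and -0.59 (SE 0.05). All 3 fell in each line. PTPN11, the SHP-1 relative SHP-2, rose by 0.34 in the mean, and was named after its value was seen.

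Of 15 restraining adaptors and ubiquitin ligases, 11 were tested, of which 5 rose and 4 fell in the mean, with a median of -0.01, beside 35.7% of all tested loci called higher and 44.9% lower. The ligases CBL and CBLB rose by 1.21 (SE 0.06) and 1.18 (SE 0.07) and in each line. DOK2, an adaptor that damps Ras, rose by 1.36 in the mean (SE 0.10), by 2.89 in SUDHL4 and 1.2 in Farage, while SUDHL6 held almost none (0.00816 FPKM under DMSO). MAP4K1, a kinase that restrains antigen receptor signals, fell by 1.18 (SE 0.08) and in each line.

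Of 23 genes of the activating receptor chain, 18 were tested, of which 14 fell and 3 rose in the mean, with a median of -0.68, again beside 44.9% of all tested loci lower and 35.7% higher. BLNK, the adaptor that links SYK to its targets, fell by 1.56 (SE 0.09), the most of this list. PIK3CD, a PI3-kinase subunit, fell by 1.12 (SE 0.16). Both fell in each line. FGR, a Src family kinase, fell by 1.14 in the mean (SE 0.08), in SUDHL4 and Farage, and was at 0.0369 FPKM in SUDHL6 under DMSO. FYN, another kinase of that family, rose by 1.48 (SE 0.05), from means of 1.798 to 10.4 FPKM in SUDHL6, 2.33 to 9.71 FPKM in SUDHL4 and 37.3 to 62.5 FPKM in Farage. The lists were not tested against each other.

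**Figure D4:**
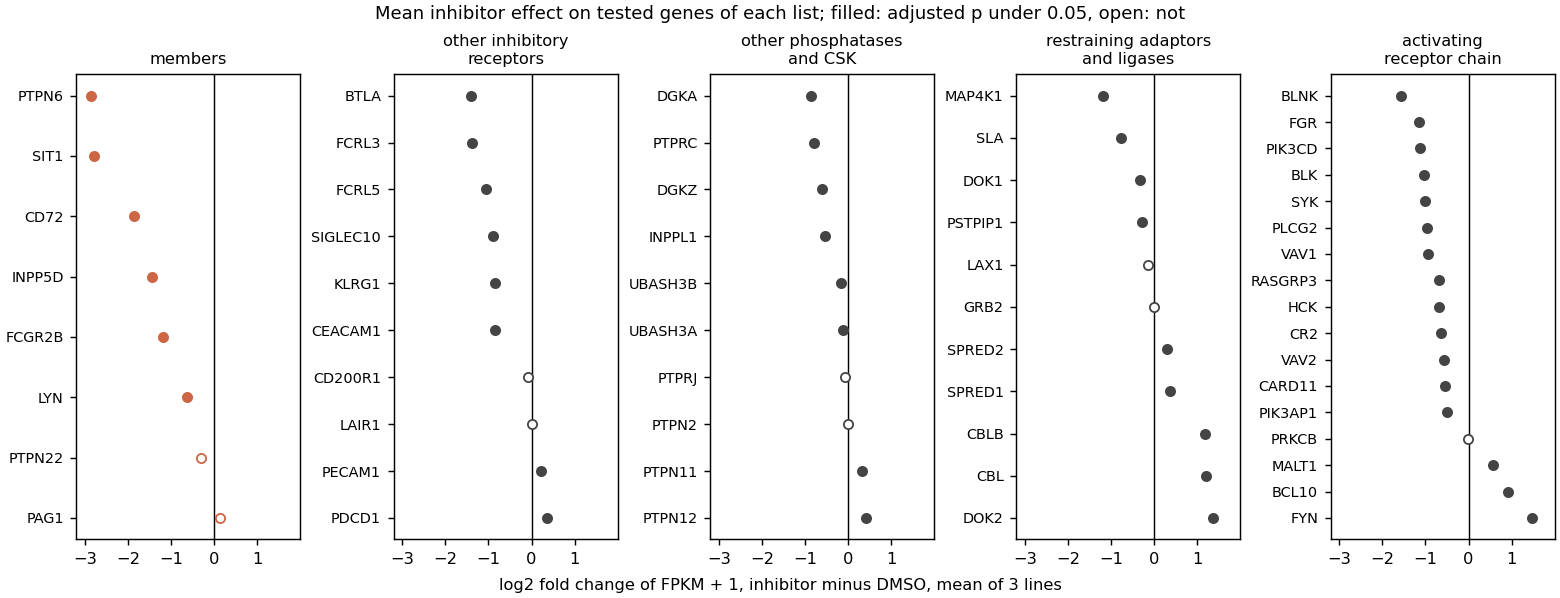
Mean change over the 3 lines under the inhibitor (log2(FPKM + 1), inhibitor minus DMSO) for the tested genes that are reported, in 5 panels for the 8 members and the 4 other lists, ordered within a panel. Filled points passed at an adjusted p under 0.05 and open points did not. The members reach -2.86, while in the other lists the lowest value is that of BLNK at -1.56 and the highest that of FYN at 1.48.

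The loci whose pattern over the 18 libraries was most like that of PTPN6 were ranked by the root mean square difference of log2(FPKM + 1) after each was centred on its own mean. Over 6622 ranked loci the median difference was 2.05. The smallest were those of PSMB9 (0.569), an immunoproteasome subunit, CPNE5 (0.656), a copine, MFI2 (0.81), melanotransferrin, MCAM (0.853), an adhesion molecule, and PARP10 (0.86). PSMB9 stood at means of 6.61, 23.3 and 53.2 FPKM under DMSO and 0.766, 4.86 and 9.03 FPKM under the inhibitor in SUDHL6, SUDHL4 and Farage. It shared with PTPN6 the order of lines under DMSO and the decrease in each, features that the ranking over these same libraries selects for. Among the members, FCGR2B was nearest to PTPN6 at 1.06, and CD72 and LYN, both low in Farage, were farthest at 2.19 and 2.30.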

How the data were processed

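mRNA was sequenced in 18 libraries, 3 in each of 6 groups set by the labels. The authors deposited 1 table of FPKM values for 34410 loci of build hg19, of which 8406 carry no gene name. CASAVA 1.8, TopHat2 and Cufflinks are named, per the submitters' processing notes; the sources used here give no other version, no annotation and no later scaling step. Since the table holds FPKM and no counts, no count test, counting interval or detection floor was used.

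Named loci with at least 1 FPKM in at least 3 libraries (12201) entered limma 3.58.1 under R 4.3.3 on the log2(FPKM + 1) scale, with a mean for each group, an empirical Bayes prior with intensity trend and Benjamini-Hochberg adjustment over all of them. Inhibitor and DMSO were compared in each line, as were their mean, their difference between lines (F test of the interaction contrasts) and DMSO between lines. The method was tested on simulated data. The genes, the 4 pathway lists and the tests were chosen with earlier results of these data known. Genes named from a list are up to 4 called ones with the largest absolute mean change, and the 5 loci most like PTPN6 come from single-gene loci with a mean of at least 5 FPKM, without small RNA or LOC names. Some genes of the lists stayed in all tests and counts but are not reported here by name. Alternatives were other scalings, pseudocounts, filters, sample weights, fits within a line, a replicate block and leaving out libraries. Same-numbered DMSO and treated libraries correlated across genes, as deviations from their group means, by 0.309, 0.366 and 0.664 in SUDHL6, by -0.034, 0.064 and -0.058 in SUDHL4 and by 0.073, -0.038 and 0.077 in Farage. No label says what a number marks. Tables used Python 3.11.15, pandas 2.3.3 and numpy 2.4.6, and plots matplotlib 3.10.9. Promoter windows are those of RefSeq on GRCh38.p14, and no hg19 coordinate was converted.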

Additional observations from a re-analysis of the deposited data

Results flagged for a closer look

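The inhibitor change differed between lines, by the limma F test with adjustment over all tested loci, for PTPN6 (adjusted p = 0.0345), FCGR2B (0.0481) and the locus shared by CD22 (0.0157), as described above, and for BCL6 (0.000369). The same test passed for 52.5% of all tested loci. BCL6 changed by -0.85 in SUDHL4, -0.19 in SUDHL6 and 0.20 in Farage, and only the first passed in its line.

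Among the pathway genes named above, the test passed for BTLA (adjusted p = 3.42e-05), FCRL3 (0.0172), SIGLEC10 (1.1e-05), DGKZ (0.0381), DOK2 (1.19e-06), CBL (0.00167), CBLB (0.000223), MAP4K1 (0.00505), BLNK (0.006), FYN (4.89e-06) and FGR (4.04e-06). BTLA and BLNK had their largest log2 change in Farage (-2.36 and -2.10). For BTLA the DMSO means in SUDHL6 and SUDHL4 were 1.82 and 0.768 FPKM, where the log2(FPKM + 1) scale understates a change. FYN and CBLB had theirs in SUDHL6 (2.03 and 1.68), and CBL in SUDHL4 (1.66). Of the loci nearest to PTPN6 in pattern, the test passed for MFI2 (0.0165), MCAM (1.13e-08) and PARP10 (7.92e-05), each with its smallest change in SUDHL6. There the 3 stood low under DMSO, at means of 1.95, 0.154 and 0.967 FPKM, where the log2(FPKM + 1) scale understates a change. PARP10 means went from 0.967 to 0.242 FPKM in SUDHL6, 8.38 to 1.68 FPKM in SUDHL4 and 15.8 to 3.64 FPKM in Farage.

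The second locus named LYN, which was not kept, held 0.754, 0.351 and 0.631 FPKM in treated SUDHL4, a mean of 0.578, against 0.140, 0.107 and 0.222 FPKM under DMSO. The treated libraries were the higher ones without overlap, opposite to the kept LYN locus. It did not pass the filter and was not tested.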

How the results depend on the processing

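Of 32 alternatives run, all 690 values of PTPN6, SIT1, CD72, INPP5D, FCGR2B and LYN in the inhibitor comparisons kept their direction and their call, and 434 of 460 counts stayed within 1.5 times the reported ones. Fits within a line give no value for the mean or the F test. The count of genes whose change differed between lines, reported as 2, was 0 with a pseudocount of 0.1 or of 0.5 FPKM, 1 with no filter, 1 after rescaling to equal sums without small RNA loci (chosen after seeing the data), 4 with the replicate block, and 0 to 4 on leaving out a library. For DMSO SUDHL4 against SUDHL6 it was 5 with sample weights, with DMSO libraries alone and after that rescaling, and 3 to 5 on leaving out a library, against 3. For DMSO Farage against SUDHL4 it was 6 with weights, 5 after rescaling and 3 to 5 on leaving out a library, against 3.

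The replicate block left 6 genes called in SUDHL6 and the calls it changed are given above with their values; same-numbered libraries deviated together in SUDHL6 (0.309 to 0.664), where treated replicate 1 correlated best with DMSO replicate 2 (0.320), and not in the other lines.

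A total of 27 single values changed sign, of which none but the FCGR2B one given with its p passed the test, and the cause was not tested. Leaving out one library at a time, LYN in SUDHL4 against SUDHL6 under DMSO ranged from -0.0554 to 0.0394, CD72 there from -0.1529 to 0.2427, INPP5D in Farage against SUDHL6 from -0.1207 to 0.0114, FCGR2B in Farage against SUDHL4 from -0.1274 to 0.0248, and under the inhibitor in SUDHL6 PAG1 from -0.1194 to 0.2185 and PTPN22 from -0.5857 to 0.466, all on the log2 scale. Otherwise LYN in SUDHL4 against SUDHL6 under DMSO became 0.0017 with median-ratio scaling, 0.0116 with quantile normalization, 0.0484 with weights, and 0.0394 without both SUDHL6 replicate 3 libraries. CD72 in the same comparison became -0.0065 with weights, -0.1529 without both SUDHL6 replicate 3 libraries and -0.3505 after rescaling. PAG1 in SUDHL6 became -0.013 with quantile normalization and -0.0463 after rescaling, which gave -0.0572 in SUDHL4. PTPN22 in SUDHL6 became 0.1219 with weights. INPP5D in Farage against SUDHL6 under DMSO became 0.0114 without both SUDHL6 replicate 3 libraries and 0.0452 after rescaling. Rescaling also gave INPP5D -0.3127 in SUDHL4 against SUDHL6 and 0.3578 in Farage against SUDHL4, PTPN22 0.1885 in the latter, and FCGR2B 0.3779 there (limma adjusted p = 0.0198).

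Depth in reads is unknown, so precision at low FPKM, as for CD5 and for FCGR2B in SUDHL6, cannot be stated.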
